A study of Mus musculus with 6 samples.

Results

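Urea transporters and the genes that bring in or make organic osmolytes were followed in the kidneys of male mice of the inbred strain C57BL/6, compared between 2 months (young) and 20 months of age (aged). RNA came from the whole organ. The set holds 7 of the 20284 genes that could be named on the array: the urea transporters Slc14a1 and Slc14a2, the osmolyte transporters Slc6a12, Slc6a6 and Slc5a3, the sorbitol-making enzyme Akr1b3 and the transcription factor Nfat5. They are read by 10 of 55681 probes, taken as those assigned to a RefSeq transcript of one of these genes. The genes were chosen by their role and with sight of the log2 signals of this age contrast, in which some of them were known to differ, so their age differences, errors and counts past a threshold are given as a description and support nothing. There were 3 young and 3 aged samples, each an independent RNA preparation on its own single-colour Agilent array. The mice carried no named allele or treatment, and the labels do not say whether each preparation came from a separate mouse, so errors and p-values cover the spread of these preparations, part of which may be technical.

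The kidney concentrates urine by building up salt and urea in its inner medulla. Urea leaves the collecting duct through products of Slc14a2 and is kept in the medulla by exchange between the blood vessels that descend into it, whose walls, like red blood cells, carry the product of Slc14a1. Cells that live in this fluid hold compatible organic osmolytes, namely sorbitol, myo-inositol, betaine, taurine and glycerophosphocholine, which balance the salt outside without disturbing proteins. NFAT5, also called TonEBP, is the transcription factor that raises the genes for these osmolytes when the surrounding fluid is concentrated, and it binds a short element known as TonE.

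The stretch of DNA just before a gene's start is shown here for 2 of the osmolyte transporters because the TonE element was described before the betaine transporter gene. Upstream windows of 250 bases, from RefSeq on build GRCm38.p6, were found for 3 of the 7 members, Slc6a12, Slc5a3 and Nfat5. The window of the most upstream of 5 listed starts of Slc6a12 lies at chr6:121342324-121342573 on the plus strand, and that of Slc5a3 at chr16:92058072-92058321 on the plus strand. Both are printed 5′ to 3′ with any match to the TonE consensus in capitals.
Slc6a12: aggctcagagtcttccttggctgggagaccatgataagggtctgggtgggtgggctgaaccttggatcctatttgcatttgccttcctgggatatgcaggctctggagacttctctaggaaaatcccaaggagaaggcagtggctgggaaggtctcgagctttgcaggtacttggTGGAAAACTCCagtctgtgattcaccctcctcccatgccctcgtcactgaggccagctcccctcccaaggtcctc
Slc5a3: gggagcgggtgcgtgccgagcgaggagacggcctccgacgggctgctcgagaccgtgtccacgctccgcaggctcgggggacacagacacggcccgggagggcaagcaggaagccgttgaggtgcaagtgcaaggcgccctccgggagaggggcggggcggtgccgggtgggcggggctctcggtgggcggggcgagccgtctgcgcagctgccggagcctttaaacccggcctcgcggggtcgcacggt
The Slc6a12 window held 1 TonE match, 75 to 65 bases before the start, and the windows of its other 4 starts, of Slc5a3 and of Nfat5 held 0. On either strand, the consensus was found in 1416 of 32851 windows of the same length (4.31%), and its core TGGAAA, which is part of it, in 6104 (18.6%). A match describes these letters only, and no match says only that they are not in this window.

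Values are log2 processed signals minus the 75th percentile of each array's log2 signal, called normalised log2 signals here, so 1 unit is a 2-fold step. They can be compared between arrays for a probe but not between probes. The share of the 55681 probes that stood well above background was 55.2% to 72.8% per young array and 46.2% to 62.8% per aged array, and the 75th percentile of processed signal ran from 2892 to 4366 on young and from 2702 to 4498 on aged arrays. No spot was saturated. All 6 arrays lay on 1 slide, the young samples in its row 1 and the aged samples in its row 2, so age and the row of the slide cannot be told apart. Samples of the same replicate number shared a slide column, and the 75th percentile was lowest in column 3 at both ages. Of the 10 member probes, 5 were well above background on all 6 arrays, and 7 passed the filter on dim probes (every array of 1 age or of both well above background). These 7 cover 6 of the 7 genes, all except Nfat5. With 3 arrays per age, precision is limited by their number.

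**Figure D1:**
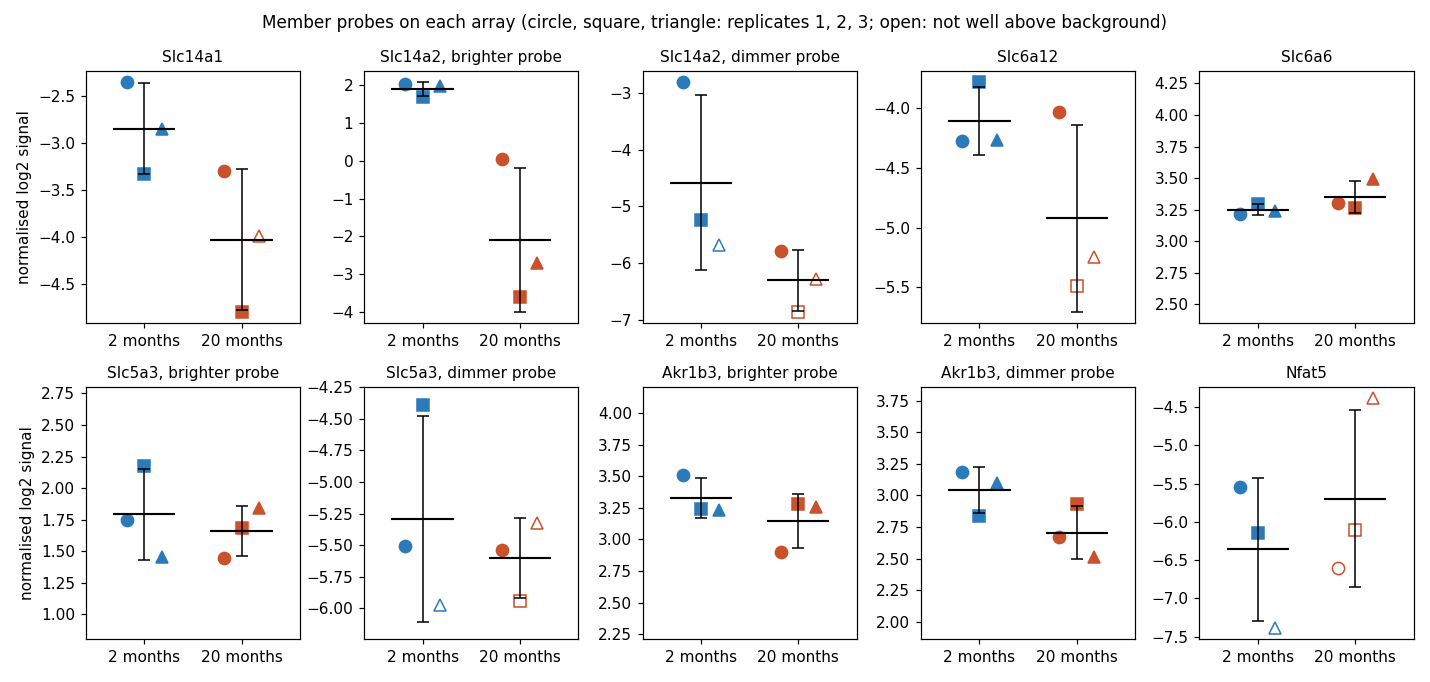
Normalised log2 signal of the 10 member probes on each array at 2 months (blue) and 20 months (orange). Circles, squares and triangles are replicates 1, 2 and 3, open symbols are arrays where the probe was not well above background, the bar is the mean and the whisker the SD of 3 arrays; the brighter Slc14a2 probe spans 1.68 to 2.03 in young and -3.61 to 0.05 in aged kidney.

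Slc14a2, which encodes the urea transporters of the inner medullary collecting duct and the descending thin limb, had the largest age difference of the set. Its brighter probe, A_52_P198885, had processed signals of 17840, 13000 and 11350 on young replicates 1, 2 and 3. On aged replicates 1, 2 and 3 they were 4659, 345.4 and 414.5, all well above background. The young arrays lay close together and every aged array lay below them, with aged replicate 1 between the young arrays and the other aged ones. On the normalised log2 scale the signals were 2.03, 1.68 and 1.97 in young and 0.05, -3.61 and -2.70 in aged kidney, which leaves a gap of 1.63 between the lowest young and the highest aged array. Set against the young mean, the aged arrays stood at 27.9%, 2.21% and 4.13%, and the young arrays at 86.1% to 109.9%. The mean was 1.89 ± 0.19 in young and -2.09 ± 1.91 in aged kidney (SD, n = 3 each), a difference of -3.98 ± 0.84 (moderated SE of the limma fit over all tested probes; 95% interval -5.96 to -2.00), or 15.8-fold lower in aged kidney. Within slide columns 1, 2 and 3 the difference was -1.98, -5.28 and -4.68. The spread between aged arrays was thus wide, and leaving out aged replicate 1 gave a difference of -5.05, aged replicate 2 one of -3.22. The limma fit takes the same variance for both ages, so its SE and interval do not show the wider aged spread.

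The other Slc14a2 probe, A_55_P1964028, is assigned to another RefSeq transcript of the gene and was dim. It was well above background on young replicates 1 and 2 and on aged replicate 1. Its normalised log2 signals were -2.81, -5.24 and -5.69 in young and -5.79, -6.86 and -6.28 in aged kidney. The aged arrays again lay below the young ones, but by 0.10 at the nearest, and young replicate 1 stood above all others. The difference of the means was -1.73, and it was -0.84 without young replicate 1. This probe was not tested because it did not pass the filter on dim probes in either age.

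Slc14a1 encodes the urea transporter of the descending vasa recta and of red blood cells. Its single probe had normalised log2 signals of -2.36, -3.33 and -2.86 in young and -3.30, -4.79 and -3.99 in aged kidney, and was well above background on all but aged replicate 3. The ages overlapped only in that aged replicate 1 lay 0.03 above young replicate 2. The means were -2.85 ± 0.49 and -4.03 ± 0.75 (SD, n = 3 each), and the difference was -1.18 ± 0.40 (moderated SE; 95% interval -2.12 to -0.23), or 2.26-fold lower in aged kidney. Within slide columns 1, 2 and 3 it was -0.94, -1.46 and -1.13, all of one sign. Leaving out aged replicate 1 gave -1.54, leaving out aged replicate 2 gave -0.79 and leaving out young replicate 1 gave -0.93.

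Slc6a12 encodes BGT1, which carries betaine into medullary cells. Its probe was dim, with normalised log2 signals of -4.27, -3.78 and -4.26 in young and of -4.03, -5.49 and -5.24 in aged kidney. Aged replicate 1 lay among the young arrays while aged replicates 2 and 3 lay below all of them, and these last 2 arrays were not well above background. The means were -4.11 ± 0.28 and -4.92 ± 0.78 (SD, n = 3 each), with a difference of -0.82 ± 0.38 (moderated SE; 95% interval -1.70 to 0.07). Within slide columns 1, 2 and 3 the difference was 0.24, -1.71 and -0.98. It was -1.26 without aged replicate 1, and -0.27 with normexp, a background correction that adds an offset and so compresses dim probes. For Slc14a2, Slc14a1 and Slc6a12 alike, aged replicate 1 was the highest and aged replicate 2 the lowest of the aged arrays.

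The taurine transporter gene Slc6a6 was bright and nearly level. Its normalised log2 signals were 3.21, 3.30 and 3.24 in young and 3.30, 3.26 and 3.49 in aged kidney, and the ages overlapped. The difference was 0.10 ± 0.11 (moderated SE), with a 95% interval of -0.17 to 0.37.

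Slc5a3 encodes SMIT1, the sodium-coupled myo-inositol transporter. Its brighter probe had normalised log2 signals of 1.75, 2.17 and 1.45 in young and 1.45, 1.69 and 1.84 in aged kidney. The ages overlapped fully, and the difference was -0.13 ± 0.21 (moderated SE; 95% interval -0.62 to 0.35). Its other probe is printed in 10 spots on each array, which shows how well 1 hybridisation repeats itself at low signal. After outlier spots were left out, the SD between spots of an array was 0.11 to 0.18 on the 3 arrays where the probe was well above background (young replicates 1 and 2 and aged replicate 1) and 0.28 to 0.44 on the other 3. The mean of its spots was -5.51, -4.39 and -5.98 in young and -5.54, -5.94 and -5.32 in aged kidney. Young replicate 2 was the highest, and the ages overlapped.

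**Figure D2:**
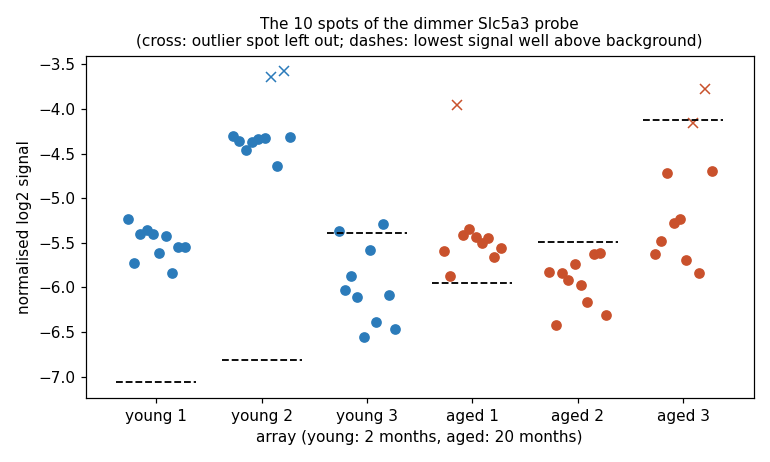
Normalised log2 signal of each of the 10 spots of the dimmer Slc5a3 probe on the 3 young (blue) and 3 aged (orange) arrays. Crosses are spots left out as outliers and dashed lines the lowest signal well above background of any probe on that array, from -7.06 on young replicate 1 to -4.12 on aged replicate 3; spots of 1 array cluster and young replicate 2 stands above the others.

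Akr1b3 encodes aldose reductase, which turns glucose into sorbitol. Both of its probes were bright on all 6 arrays. The brighter had normalised log2 signals of 3.51, 3.24 and 3.23 in young and 2.90, 3.28 and 3.26 in aged kidney, and the other 3.19, 2.84 and 3.10 in young and 2.67, 2.93 and 2.51 in aged kidney. The ages overlapped for both probes. The differences were -0.18 ± 0.15 and -0.34 ± 0.16 (moderated SE; 95% intervals -0.54 to 0.18 and -0.71 to 0.03). The former was -0.06 without aged replicate 1 and -0.28 with normexp.

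Nfat5, the regulator of these osmolyte genes, could not be followed with this array. Its single probe was well above background on young replicates 1 and 2 and on 0 of 3 aged arrays. Its normalised log2 signals were -5.55, -6.14 and -7.39 in young and -6.60, -6.10 and -4.39 in aged kidney, so its highest signal fell on an array where it was not well above background. No fold is given, since the bound on the aged side lay above the young mean.

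In the fit with 1 probe per gene, 1 of the 6 tested members, Slc14a2, was lower past the adjusted p threshold of 0.05, where 3.38% of the 14545 genes tested passed, 1.4% lower and 1.98% higher (limma, Benjamini-Hochberg adjustment). In the fit over the 30821 tested probes, 0 of the 7 tested member probes passed, against 2.09% of all (0.607% lower and 1.48% higher), and 2 had an unadjusted p under 0.05, as did 15.4% of all. With the slide column as a block Slc14a1 passed as well in the fit over genes (limma adjusted p = 0.0265, against 0.166 without it). It also passed with median centring (limma adjusted p = 0.00582) and without aged replicate 1 (0.0453), where Slc6a12 passed too (0.0161). Under these 2 settings 773 and 921 genes passed, against 491 in the main fit. Slc14a1 and Slc6a12 passed the filter on dim probes through the young arrays alone. Without aged replicate 1, no aged array left had Slc6a12 well above background, so its call there sets signal against background. The call of Slc14a2 was lost without any 1 array other than aged replicate 1, and with quantile normalisation, no filter on dim probes or a trended robust variance. Of the 7 tested member probes, 1 had ages that did not overlap, again Slc14a2, where 12.2% of all tested probes were lower and 8.56% higher without overlap (20.8% in all). Over the 14545 genes these shares were 11.5% and 10.3% (21.8% in all). The median difference of the 6 tested members was -0.50, beside -0.01 for all genes tested. These counts come from the contrast that was known when the genes were chosen, and nothing is read from them. In whole-kidney RNA, fewer cells of a type and less RNA per cell cannot be told apart.

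**Figure D3:**
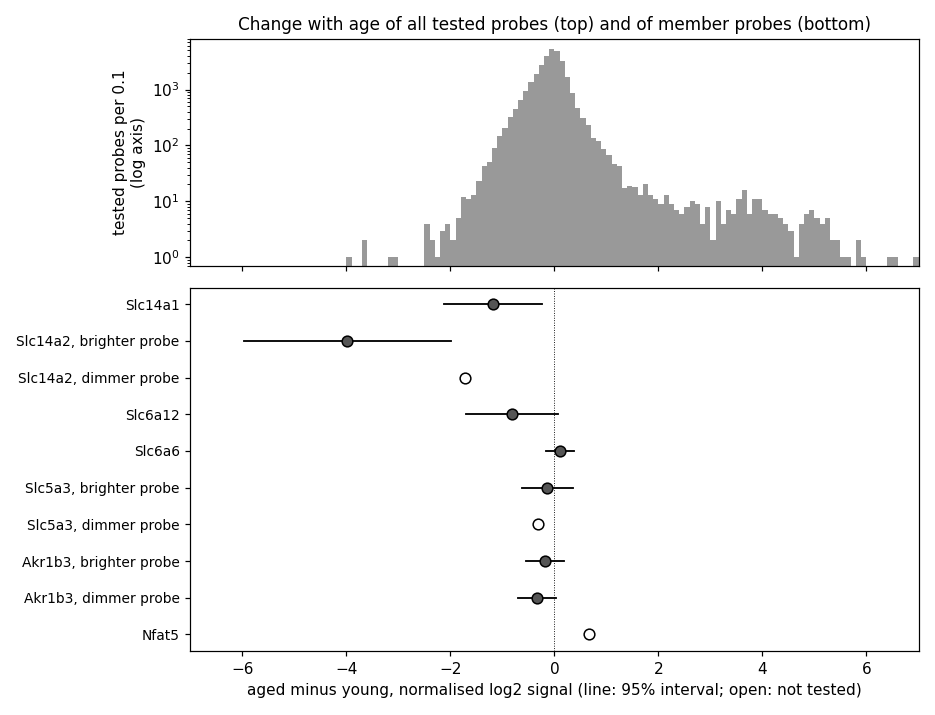
Aged minus young normalised log2 signal of all 30821 tested probes (top, probes per step of 0.1 on a log axis) and of the 10 member probes (bottom, points with 95% intervals; open points were not tested and have none). The brighter Slc14a2 probe lies at -3.98, while the intervals of Slc6a12, Slc6a6, Slc5a3 and Akr1b3 include 0.

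The genes whose signal over the 6 arrays was most like that of a member were looked up among 13942 tested genes, by Pearson correlation, as a description. Many genes reach a high value over so few arrays, and part of each is the age difference itself. For Slc14a2 they were Rnf182, a ubiquitin ligase (r = 0.999 over 6 arrays), Zbtb8b (r = 0.998) and Scel, which encodes the cell envelope protein sciellin (r = 0.997). Rnf182 stood at -6.09 and -5.86 on aged replicates 2 and 3, below the lowest signal well above background there (-5.49 and -4.12). Zbtb8b was below it on aged replicate 3 (-4.56). The values of Rnf182 and Zbtb8b thus rest in part on aged signals near background. Scel had signals of 0.00, -0.01 and 0.05 in young and -0.42, -1.29 and -1.18 in aged kidney, with the same order of the aged arrays as Slc14a2. For Slc14a1 they were the prostaglandin E receptor gene Ptger1 (r = 0.993), Cd82 (r = 0.991) and Osgin2 (r = 0.990), and for Slc6a12 Synj2 (r = 0.995), Dpf1 and Hs2st1. Ptger1 had signals of -0.02, -0.72 and -0.49 in young and -0.82, -1.75 and -1.12 in aged kidney. For the members that differed less, the most alike were Rbm39, Rax and Usp10 for Slc6a6, Tmem41b, Etf1 and Vpreb1 for Slc5a3, and Mpped2, Lmtk3 and Phpt1 for Akr1b3, at r = 0.980 to 0.995. Lmtk3 was not well above background on aged replicate 3 (-4.20).

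Other genes of the pathway were taken from lists. Of all 14545 genes, 17.1% had an unadjusted p under 0.05, the share against which counts of that kind are to be read. Past the adjusted threshold were 3.38%, with 1.98% higher and 1.4% lower. These are the shares for genes said to pass, rise or fall in this and the later lists. Of 22 tested genes of osmolyte transport and metabolism, 1 rose, 0 fell and 21 did not pass (median difference 0.01, 1 with an unadjusted p under 0.05 in limma). The gene that rose was Bhmt, which uses betaine to remethylate homocysteine, with signals of -0.32, -0.60 and -0.43 in young and 0.67, 0.29 and 1.08 in aged kidney (difference 1.13 ± 0.20, SE, n = 3 arrays per age, limma adjusted p = 0.0269). Its ages did not overlap, and the call was lost in 3 of 6 fits that left out 1 array, those without a young one (adjusted p up to 0.0894). The proton-coupled myo-inositol transporter gene Slc2a13 differed by -0.28 ± 0.14, the choline transporter gene Slc44a1 by 0.21 ± 0.12 and Aldh7a1, an aldehyde dehydrogenase of betaine synthesis, by 0.34 ± 0.24, with limma adjusted p of 0.369, 0.42 and 0.515.

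Of 12 tested genes in a list of other reported NFAT5 targets, 2 rose, 0 fell and 10 did not pass (median 0.15). With 1 array left out the median ran from 0.04 (without young replicate 3) to 0.44 (without young replicate 2). In limma 5 had an unadjusted p under 0.05. Both that rose encode multidrug efflux pumps: Abcb1b differed by 1.10 ± 0.18 (limma adjusted p = 0.022) and Abcb1a by 0.67 ± 0.13 (0.0364). These 2 genes are close relatives, so their probes may share signal. Their calls were lost in 3 and 4 of 6 fits that left out 1 array, and that of Abcb1a also with the replicate number as a block (0.0519) and with quantile normalisation (0.0616). The chemokine gene Ccl2 differed by 1.18 ± 0.27 and S100a4, a calcium-binding protein gene, by 0.61 ± 0.15, with limma adjusted p of 0.0607 and 0.0725. Beside these, 8 of 8 tested leukocyte markers were above 0 (2 past the threshold), and their part in the values of Ccl2 and S100a4 was not tested.

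None of 16 tested NFAT5 regulators and partners passed (median 0.02, 2 with an unadjusted p under 0.05 in limma). The chaperone gene Hsp90aa1 differed by -0.40 ± 0.13, Akap13, which signals to NFAT5, by 0.30 ± 0.11, the kinase gene Map2k6 by 0.28 ± 0.15 and Parp1 by -0.19 ± 0.12. Among the calcineurin-regulated NFAT genes and their partners 0 of 9 passed (median 0.07, 3 with an unadjusted p under 0.05 in limma), with Nfatc4 at -0.60 ± 0.17, the calcineurin inhibitor gene Rcan1 at 0.45 ± 0.15, Nfatc2 at -0.32 ± 0.13 and the calcineurin subunit gene Ppp3r1 at -0.29 ± 0.15.

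Of 12 tested genes of urea formation and of vasopressin signalling to the urea transporter, 0 passed (median -0.01, 2 with an unadjusted p under 0.05 in limma). Avpr2, the vasopressin receptor of the collecting duct, had signals of 1.33, 1.18 and 1.25 in young and 0.84, 0.69 and 0.88 in aged kidney, with no overlap, a difference of -0.45 ± 0.11 and a limma adjusted p of 0.0692. The kinase subunit gene Prkaca differed by -0.29 ± 0.12, the agmatinase gene Agmat by 0.25 ± 0.15 and the adenylyl cyclase gene Adcy6 by -0.17 ± 0.10.

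Marker lists of the collecting duct, thin limbs, endothelium and red cells were measured beside the urea transporters. They are broader than the cells that carry these transporters, and none is confined to the inner medulla or the descending vasa recta. Of 14 collecting duct markers, 13 were below 0, 2 fell and 0 rose (median -0.30, beside -0.01 for all genes tested). Of all genes, 1.4% fell past the adjusted threshold. An unadjusted p under 0.05 in limma was found for 8, and for 17.1% of all genes. The ages did not overlap for 7, all lower, where 11.5% of all genes were lower without overlap. The summed signal of the 14 was 5.21 to 5.47 in young and 4.94 to 5.25 in aged kidney on the log2 scale. The 2 that fell were Kcne1, a potassium channel subunit gene (-0.63 ± 0.12, limma adjusted p = 0.0386), and Elf5, a transcription factor gene of principal cells (-2.21 ± 0.44, 0.042), well above background on 1 aged array. Scnn1b, a subunit gene of the epithelial sodium channel, differed by -0.48 ± 0.11 (limma adjusted p = 0.0641). Each call was lost in 5 of 6 fits that left out 1 array and with normexp, under which Elf5 differed by -1.06, and that of Kcne1 with median centring and the replicate block. The 1 marker above 0 was the water channel gene Aqp4, at 0.78 ± 0.28 (limma adjusted p = 0.212), also named after its value was seen. The water channel gene Aqp2, named after its value was seen, was bright on all arrays and differed by -0.20 ± 0.17.

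Of 8 tested thin limb markers, 8 were below 0 and 2 fell (median -0.25, 2 with an unadjusted p under 0.05 in limma). The summed log2 signal of the 8 was 4.49 to 4.65 in young and 4.26 to 4.53 in aged kidney. Corin, the gene of a protease that activates natriuretic peptides, well above background on 3 young and 2 aged arrays, fell by 1.58 ± 0.16 (limma adjusted p = 0.00466) and Bst1 by 1.13 ± 0.17 (0.015). Corin did not pass with normexp (-0.81, adjusted p = 0.0627) and Bst1 not without young replicate 1 or aged replicate 2. The tight junction gene Cldn4 and the follistatin gene Fst differed by -0.34 ± 0.16 and -0.60 ± 0.28. Aqp1, the water channel gene of the descending thin limb and proximal tubule, differed by -0.01 ± 0.12 and was named after its value was seen.

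Of 11 tested endothelial markers, 1 rose and 0 fell (median -0.02, 1 with an unadjusted p under 0.05 in limma). The summed log2 signal of the 11 was 4.48 to 4.52 in young and 4.46 to 4.56 in aged kidney. The gene that rose was Edn1, the vasoconstrictor endothelin (0.81 ± 0.11, limma adjusted p = 0.013), a call lost without young replicate 1 or aged replicate 2. Cdh5, Tek and Gja4 differed by -0.34 ± 0.15, -0.22 ± 0.14 and 0.17 ± 0.15. Of 8 tested erythroid markers, 7 were below 0 and 0 passed (median -0.17, 1 with an unadjusted p under 0.05 in limma), and the summed log2 signal was 6.19 to 6.22 in young and 5.91 to 6.10 in aged kidney, without overlap. By gene, the ages did not overlap for 2 of the 8, all lower, where 11.5% of all genes were lower without overlap. The globin genes Hba-a2, Hbb-bt and Hba-a1 and the anion exchanger gene Slc4a1 differed by -0.42 ± 0.12, -0.22 ± 0.11, -0.17 ± 0.12 and -0.24 ± 0.14. The part of collecting duct, thin limb, endothelial and red cell RNA in the values of Slc14a2 and Slc14a1 was not tested.

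Urothelium is the lining of the renal pelvis beside the inner medulla. Of its 7 tested markers, 6 were below 0, 1 fell and 0 rose (median -1.37, 3 with an unadjusted p under 0.05 in limma). Without young replicate 1 the median was -0.59, with 5 markers below 0 and 2 above. The summed log2 signal of the 7 was 2.67 on young replicate 1. It was -0.28 and -0.42 on the other young and -1.12 to -0.54 on the aged arrays. Young replicate 1 thus stood apart, as it did for the dimmer Slc14a2 probe. The marker that fell was the urothelial plaque gene Upk3b (-1.79 ± 0.23, limma adjusted p = 0.01). Its signals were -1.93, -2.01 and -2.46 in young kidney, so young replicate 1 did not stand apart for this gene. Krt15, Upk3a and Upk2 differed by -2.38 ± 0.98, -2.48 ± 1.05 and -1.37 ± 0.59, each well above background on 2 aged arrays. Without young replicate 1 these 3 differed by -1.03, -1.08 and -0.59, and Upk3b by -1.69. With that array left out, Psca went from -0.71 to 1.01 and Krt20 from 0.05 to 0.30. These 2 were named after their values were seen. For the brighter Slc14a2 probe the young arrays lay within 0.35 of one another, and without young replicate 1 its difference was -3.91. For both Slc14a2 probes and for Slc14a1 (-0.93 without young replicate 1) the part of pelvic tissue was not tested.

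**Figure D4:**
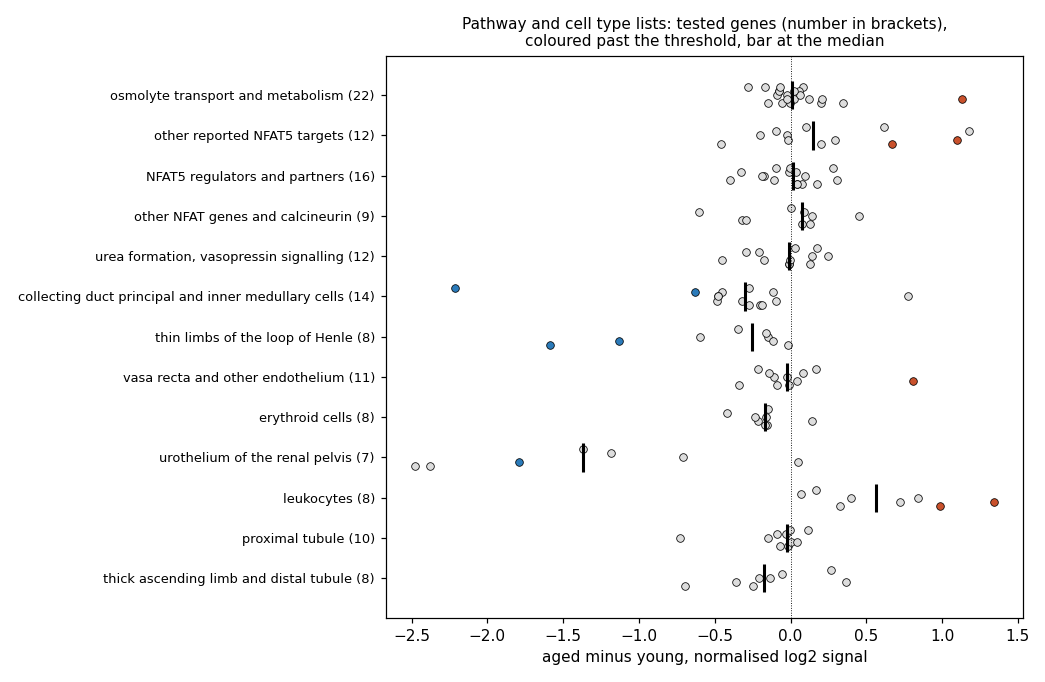
Aged minus young normalised log2 signal of every tested gene of the pathway lists (top 5 rows) and cell type marker lists (lower 8 rows), with the number tested in brackets. Coloured points passed the adjusted p threshold of 0.05 (orange higher, blue lower in aged kidney) and the bar is the median, which runs from -1.37 for urothelium (-0.59 without young replicate 1) to 0.56 for leukocytes.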

How the data were processed

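Per the file headers, arrays were read by Agilent Feature Extraction 11.5.1.1 from scans of 3 micron resolution. The deposited processed intensity is background-subtracted and detrended within each array, with no scaling between arrays. The authors' deposited value table is on the log2 scale and matches the per-probe log2 processed signal less the array's 75th percentile (median absolute difference 0.00497 to 0.00899), so its scale and centring are known. Trizol RNA was labelled with Cy3 through random priming with Klenow enzyme, per the labels' protocols, so either strand may carry label.

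Control spots and outlier spots were left out, spots of a probe were averaged as log2, and each array's 75th percentile over all non-control spots was subtracted. Probes were named through RefSeq transcripts of build GRCm38.p6 (26762 of 55681 probes), a build other than the array's, so coordinates are printed only for the upstream windows, which RefSeq gives on that build. The brightest probe stood for a gene. The ages were set against each other in limma (eBayes on lmFit, 2-sided, Benjamini-Hochberg adjustment over all probes or genes tested, threshold 0.05). The members, the 5 pathway lists and the 8 cell type lists were chosen with earlier results of these data known. Named genes were all members, up to 4 per list with the smallest p and the 3 most alike per tested member, and others are marked. A list's summed signal is the log2 of the sum of its tested genes' scaled linear signals. The alternatives were other scalings, background correction, filters, variance models, the replicate number as a block and each array left out. The fit was tested on simulated data. These had equal spread at both ages and no background floor, so unequal spread and dim probes were not covered. Software was R 4.3.3 with limma 3.58.1, and Python 3.11.15 with matplotlib 3.10.9.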

Additional observations from a re-analysis of the deposited data

How the results depend on the processing

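Of 160 values of the member probes' age differences under alternatives, 49 equal the reported value because the setting alters only the test, the filter or spots that these probes lack. Of the other 111, 2 had another sign, both of Slc5a3 without young replicate 2 (0.06 and 0.14). The brighter Slc14a2 probe ran from -5.05 to -3.22 over fits that left out 1 array and was -4.50 with array weights. The count of genes past the threshold was 491 and became 773 with median centring (51.4% of them higher, against 58.7%), 304 with normexp (70.4% higher), 16 with no filter on dim probes, 829 with array weights and 141 to 921 with 1 array left out (921 without aged replicate 1, 141 without aged replicate 2). The count of probes was 643 and became 105 with no filter, 1136 with array weights and 310 to 2042 with 1 array left out. The number of pathway list genes past the threshold was 3, and it was 0 with no filter, 5 with signal required on all 6 arrays, 6 with a trended robust variance, 7 with array weights and 0 to 4 with 1 array left out. The number of members past the threshold was 1, and it was 0 with quantile normalisation, no filter or a trended robust variance, 2 with median centring or with an unadjusted p and a 2-fold change, and 0 to 3 with 1 array left out. The cause of these shifts was not tested. With the replicate number as a block, 266 genes, 448 probes, 2 pathway genes and 2 members (Slc14a2 and Slc14a1) passed. The labels do not say that the numbers pair samples, and the deviations of same-numbered samples correlated at 0.06, -0.09 and 0.10 across genes. These samples also share a slide column, so this block is a block for the column too. A block for the slide could not be fitted, since all arrays lay on 1 slide. No scaling moved the median of all genes by over 0.1. Probes near background, among them those of Nfat5 and Slc6a12, limit what can be said of these genes.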

Other observations

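Marker lists of cells that are not known for the urea transporters were measured in the same fit. Of 8 tested leukocyte markers, 2 rose and 0 fell (median 0.56). In limma 6 had an unadjusted p under 0.05, as did 17.1% of all genes. Past the adjusted threshold, 1.98% of all genes rose. The summed log2 signal of the 8 was 5.23 to 5.41 in young and 5.40 to 5.67 in aged kidney. Much of this sum is the bright integrin gene Itgam, at 4.85 to 5.05 in young and 4.94 to 5.30 in aged kidney. Itgam, named after its value was seen, differed by 0.16 ± 0.13 (limma adjusted p = 0.563). The integrin gene Itgax of dendritic cells differed by 0.99 ± 0.13 (limma adjusted p = 0.0111) and Ms4a1, the B cell gene for CD20, by 1.35 ± 0.28 (0.0448). The T cell receptor complex genes Cd3e and Cd3g differed by 0.72 ± 0.18 and 0.84 ± 0.24 and did not pass. The call of Ms4a1 was lost in 5 of 6 fits that left out 1 array and with the replicate block (adjusted p = 0.114) or quantile normalisation (0.066).

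Of 10 tested proximal tubule markers 0 passed (median -0.02, 0 with an unadjusted p under 0.05 in limma). Kap, an androgen-responsive gene of this segment, differed by -0.73 ± 0.33 with its lowest signal on aged replicate 2, while Slc5a12, Slc13a1 and Lrp2 differed by -0.15 ± 0.13, 0.11 ± 0.11 and -0.09 ± 0.12. Of 8 tested thick ascending limb and distal tubule markers 0 passed (median -0.17, 3 with an unadjusted p under 0.05 in limma). The calcium-binding protein gene Calb1, Cldn16 and the salt transporter genes Slc12a3 and Slc12a1 differed by -0.70 ± 0.17, -0.36 ± 0.12, 0.37 ± 0.12 and -0.25 ± 0.11.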
